A study of Mus musculus with 16 samples.

Results

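The transcripts of the Dlg, Shank and Homer scaffold families were followed in the cortex of mouse pups at P7. The 10 genes Dlg1, Dlg2, Dlg3, Dlg4, Shank1, Shank2, Shank3, Homer1, Homer2 and Homer3 were chosen by family name, with earlier results of these data known, from 36930 entries of the deposited table. All 10 of these genes passed the filter on low expression, which left 21183 genes for the comparison.

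RNA sequencing was done on cortices of 16 pups with a C57BL6 background, 8 ChR2-flfl and 8 Avil-ChR2, and 1 library was made per pup. All pups carried a floxed channelrhodopsin-2/td-Tomato construct in the Rosa26 locus, and all received blue light, 1 h on each day between P1 and P5. In Avil-ChR2 mice, Cre recombinase under the advillin promoter removes a STOP sequence, so that ChR2 is made in advillin-expressing cells, which are mainly sensory neurons outside the brain. ChR2-flfl pups have no Cre and served as light-exposed controls, and pups without light are not among these samples. The question was therefore whether the cortex differs between these genotypes after the same light in the first days of life. Effects of the stimulation and of carrying Cre and ChR2 cannot be told apart in these samples.

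Synapses that use glutamate carry a dense protein layer under the postsynaptic membrane, which is built from the products of these families. Dlg proteins, the membrane-associated guanylate kinases SAP97 (Dlg1), PSD-93 (Dlg2), SAP102 (Dlg3) and PSD-95 (Dlg4), bind the tails of NMDA receptors, potassium channels and adhesion molecules through their PDZ domains. Shank proteins lie deeper and link the Dlg layer, via SAPAP adaptors, to Homer and to the actin cytoskeleton. Homer proteins form multimers that bind metabotropic glutamate receptors, IP3 receptors and ryanodine receptors, and thereby connect the synapse with calcium stores. SAP102 is known as the Dlg paralog of the young forebrain, whereas PSD-95 gains weight as synapses mature. Homer1 also gives rise to a short form that is induced by activity, which cannot be told apart from the long forms in values per gene.

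The genes differ strongly in base composition, which is shown here because their covariation between pups is set beside it further down. The sequences are 60 bases from the centre of the longest coding sequence in GENCODE M21 (GRCm38), written 5′ to 3′ in the sense of the mRNA, with G and C in capitals and a and t in lower case.
Shank3: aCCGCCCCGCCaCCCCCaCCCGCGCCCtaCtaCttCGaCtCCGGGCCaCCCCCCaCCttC
Shank1: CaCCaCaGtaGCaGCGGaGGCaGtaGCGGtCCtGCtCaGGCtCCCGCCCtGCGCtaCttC
Dlg2: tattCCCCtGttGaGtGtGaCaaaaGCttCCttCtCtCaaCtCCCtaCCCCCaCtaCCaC
Homer1: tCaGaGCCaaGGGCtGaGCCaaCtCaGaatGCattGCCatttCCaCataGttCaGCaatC
The Shank3 stretch lies in exon 21 of 22 at chr15:89547730-89547789 (plus strand) and holds 75% G and C. The Shank1 stretch, in exon 24 of 25 at chr7:44352078-44352137 (plus strand), holds 66.7%. The Dlg2 stretch, in exon 15 of 28 at chr7:91997230-91997289 (plus strand), holds 50%. The Homer1 stretch starts in exon 5 of 9 and is spliced over an intron, chr13:93356030-93387533 (plus strand), and it holds 48.3%. Over the longest whole transcript, GC content was 62.4% for Shank3, 61.5% for Shank1 and 60.2% for Homer3, followed by 54.97% for Shank2 and 50.5% for Dlg3. It was 46.8% for Dlg4, 44.4% for Homer2, 44.3% for Dlg2, 43.8% for Dlg1 and 36.9% for Homer1.

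The libraries held between 30549126 and 48711134 reads, and all but ChR2-flfl replicate 3 held at least 47791532. Values are CPM, read counts that the authors scaled to a common library size with TMM factors. Avil, the gene whose promoter drives Cre, had 1.07 ± 0.199 CPM in ChR2-flfl and 39.7 ± 2.90 CPM in Avil-ChR2 cortices (mean ± SD, n = 8 each), in accord with the genotype labels of all 16 pups. What the Avil reads in the Avil-ChR2 cortex itself come from was not tested. The Y-linked gene Ddx3y had 54.7 CPM in Avil-ChR2 replicate 4, which is labelled female. This level is within the range of the labelled males, whereas the other labelled females had at most 2.57 CPM. The label is thus at odds with Ddx3y. Genotype by sex interactions are given with this pup as female and as male, but the alternative with sex as a covariate used the labels only. Xist was listed at 0 in most labelled females and could not serve as a check. Markers of cortical excitatory neurons summed to 1171 to 1274 CPM in ChR2-flfl and 1223 to 1291 CPM in Avil-ChR2 pups, with all 6 of 6 markers detected in every pup. Summed markers of the choroid plexus and of sensory neurons stayed at or below 2.55 and 0.859 CPM per pup, with Folr1, Ttr, Mrgprd and Scn10a at 0 in some pups. Other markers were higher, with 97.3 to 144 CPM for the striatum and 61.9 to 83.8 CPM for the thalamus. Markers of the meninges summed to 58.3 to 119 CPM and erythroid markers to 227 to 465 CPM. Whether the samples held neighbouring tissue or blood was not tested. In whole cortex, fewer cells of a type and less RNA per cell cannot be told apart.

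Dlg4 and Dlg2 were the most abundant of the scaffold transcripts, and Homer3 was by far the scarcest. Levels of different genes were compared as CPM per kb of exon, since long mRNAs yield more reads. In ChR2-flfl cortices, Dlg2 had 82.8 ± 3.25 and Dlg4 58.7 ± 3.36 CPM per kb, without overlap between the pups. Dlg3 followed with 42.1 ± 0.781, Shank1 with 39.2 ± 6.19 and Shank2 with 31.1 ± 2.69 CPM per kb. Dlg3 exceeded Shank1 in 6 of 8 ChR2-flfl pups with a paired difference of 2.81 ± 6.32 CPM per kb, so that these neighbours did not differ beyond their spread. Shank3 had 22.4 ± 2.25 CPM per kb, and a step led down to Homer1 with 10.6 ± 0.473, Dlg1 with 9.59 ± 0.601, Homer2 with 7.76 ± 0.320 and Homer3 with 2.44 ± 0.217 CPM per kb.

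The order was the same in Avil-ChR2 cortices, from 82.5 ± 3.57 CPM per kb for Dlg2 and 61.2 ± 3.42 for Dlg4 to 2.70 ± 0.209 for Homer3. There, Shank1 with 37.1 ± 3.33 CPM per kb lay above Shank2 with 30.6 ± 1.41 in 8 of 8 pups, although their ranges overlapped between pups. Homer1 exceeded Dlg1 by 0.646 ± 0.388 CPM per kb in these pups. The top of the order depends on the length that is used. The union of exons was taken over coding transcripts, and the longest transcript over all transcripts of a gene, coding or not. Which transcripts the reads came from was not tested. When the longest transcript replaces the union of exons, 6326 bp instead of 12939 bp for Dlg4, Dlg4 takes the first place with 120.1 CPM per kb in ChR2-flfl and 125.1 in Avil-ChR2, and Dlg2 the next with 94.2 and 93.9. Homer1 then moves up to 21.4 and 20.9 CPM per kb, whereas its place in the order stays. Whether reads in introns were counted is not stated in the sources used here, which is a limit of all levels per kb.

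**Figure D1:**
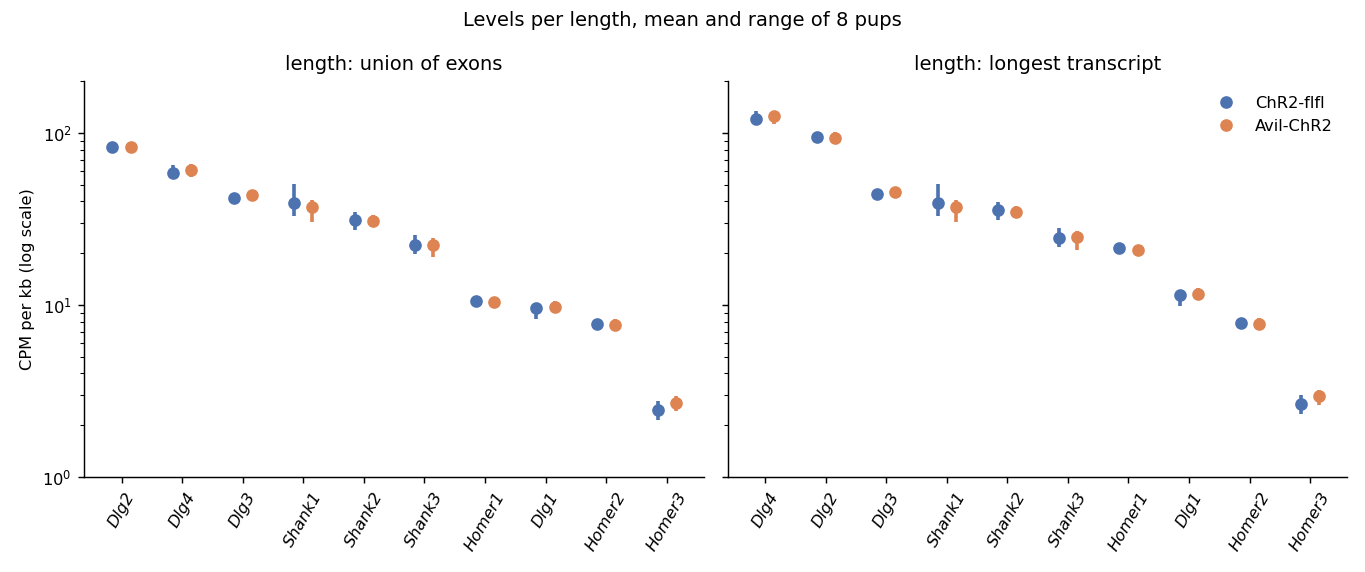
Level of each scaffold transcript as TMM CPM per kb on a log scale, per kb of the union of exons (left) and of the longest transcript (right). Points are means and bars the range of 8 ChR2-flfl (blue) and 8 Avil-ChR2 pups (orange); Dlg4 and Dlg2 lead in both panels but change places, and Homer3 is lowest at 2.44 to 2.95 CPM per kb.

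Within the families, the composition per kb of the union of exons was nearly equal in both genotypes. Dlg2 made up 42.9 ± 1.22% of the summed Dlg level per kb in ChR2-flfl and 42.0 ± 0.889% in Avil-ChR2 cortices, Dlg4 30.4 ± 1.20% and 31.1 ± 1.06%, Dlg3 21.8 ± 0.440% and 22 ± 0.569%, and Dlg1 4.96 ± 0.246% and 4.94 ± 0.125%. Shank1 gave 42.1 ± 2.23% and 41.1 ± 1.28% of the Shank level, and Homer1 51.0 ± 1.20% and 50.1 ± 1.74% of the Homer level (n = 8 each). Homer3 contributed 11.7 ± 1.22% in ChR2-flfl and 13.1 ± 1.21% in Avil-ChR2 cortices. The shares of the genes within a family depend on the length used. Per kb of the longest transcript, Dlg4 had 120.1 and Dlg2 94.2 CPM per kb in ChR2-flfl, so that Dlg4 would lead. Homer1 then had 21.4 and Homer2 7.90 CPM per kb.

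In the comparison of Avil-ChR2 with ChR2-flfl cortices, none of the 10 scaffold genes passed the threshold after adjustment over all genes (limma, Benjamini-Hochberg), and the adjusted p-values lay between 0.88 and 0.996. Across all 21183 genes, 2 (0.00944%) passed that threshold, and 1 of them was Avil, the gene used above as the check of the genotype. At an unadjusted p under 0.05, 1 of the 10 genes, Homer3, was counted, whereas 5.41% of all genes were, so that this count is near the background and no result about the scaffolds as a group. There were 5 scaffold genes with a higher and 5 with a lower mean in Avil-ChR2, and their median log2 difference was 0.0009, beside 0.0020 for all genes. In none of the 10 scaffold genes did the genotypes separate without overlap. The share of all genes without overlap was not counted, so that this is no result about the scaffolds. Each library is a separate pup, but litters are not given in the labels, so that their part in the spread was not tested.

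Among the Dlg genes, Dlg4 (PSD-95, chr11:70018455-70045532, plus strand) ranged from 711 over a median of 755 to 845 CPM in ChR2-flfl and from 712 over 794 to 852 CPM in Avil-ChR2 pups. The means were 760 ± 43.4 and 792 ± 44.3 CPM, and 7 of 8 Avil-ChR2 pups exceeded the mean of the controls. The log2 difference was 0.06 (SE 0.039, 95% interval -0.02 to 0.14, limma p = 0.143, exact permutation p = 0.167), which corresponds to a change between -1.49% and 10.1%. Its level thus differed by less than the spread between pups.

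Dlg3 (SAP102, chrX:100767586-100818410, plus strand) was the steadiest of the set. It ranged from 215 over a median of 223 to 227 CPM in ChR2-flfl and from 223 over 228 to 235 CPM in Avil-ChR2 pups, with a coefficient of variation of 1.86% and 2.21%. The ChR2-flfl mean was exceeded by all 8 Avil-ChR2 pups, and the highest ChR2-flfl pup by 4. The log2 difference of 0.04 (SE 0.021, 95% interval -0.003 to 0.084) equals a 1.03-fold level. The moderated test gave an unadjusted p of 0.0658 (limma, adjusted p = 0.92) and the exact permutation test an unadjusted p of 0.0180. The pups' numbers fall into a first run, 26 to 33, and a second run, 35 to 42, and the log2 difference of Dlg3 was 0.037 within the first and 0.044 within the second.

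Dlg2 (PSD-93, chr7:90476183-92449246, plus strand) spans 1973064 bp, the longest of the set, and its means differed by less than the spread between pups. It ranged from 692 over 739 to 775 CPM in ChR2-flfl and from 699 over 720 to 787 CPM in Avil-ChR2 pups, and the 95% interval of its log2 difference, -0.07 to 0.06, limits a change to between -4.59% and 4.21%. Dlg1 (SAP97, chr16:31663443-31873356, plus strand) ranged from 60.9 over 71.2 to 74.5 CPM in ChR2-flfl and from 68.5 over 70.8 to 77.4 CPM in Avil-ChR2 pups. The lowest value came from ChR2-flfl replicate 1, and the other 7 ChR2-flfl pups lay at 68.8 CPM or higher. Its log2 difference was 0.02 (SE 0.037, 95% interval -0.06 to 0.10) and was -0.01 without that pup.

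The balance of the paralogs was compared as a ratio within each pup, which does not depend on the scaling between libraries. There were 3.28 to 3.73 CPM of Dlg4 per CPM of Dlg3 in ChR2-flfl pups and 3.19 to 3.82 in Avil-ChR2 pups. The mean log2 ratio differed by 0.02 between genotypes (exact permutation test, two-sided p = 0.594, also 0.594 adjusted over 2 ratios). The ratio of Dlg4 to Dlg1 lay between 9.67 and 12.02 in ChR2-flfl and between 10.3 and 12.2 in Avil-ChR2 pups, and its mean log2 ratio differed by 0.04 (exact permutation p = 0.439, adjusted p = 0.594). The ranges of both ratios overlapped almost completely.

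**Figure D2:**
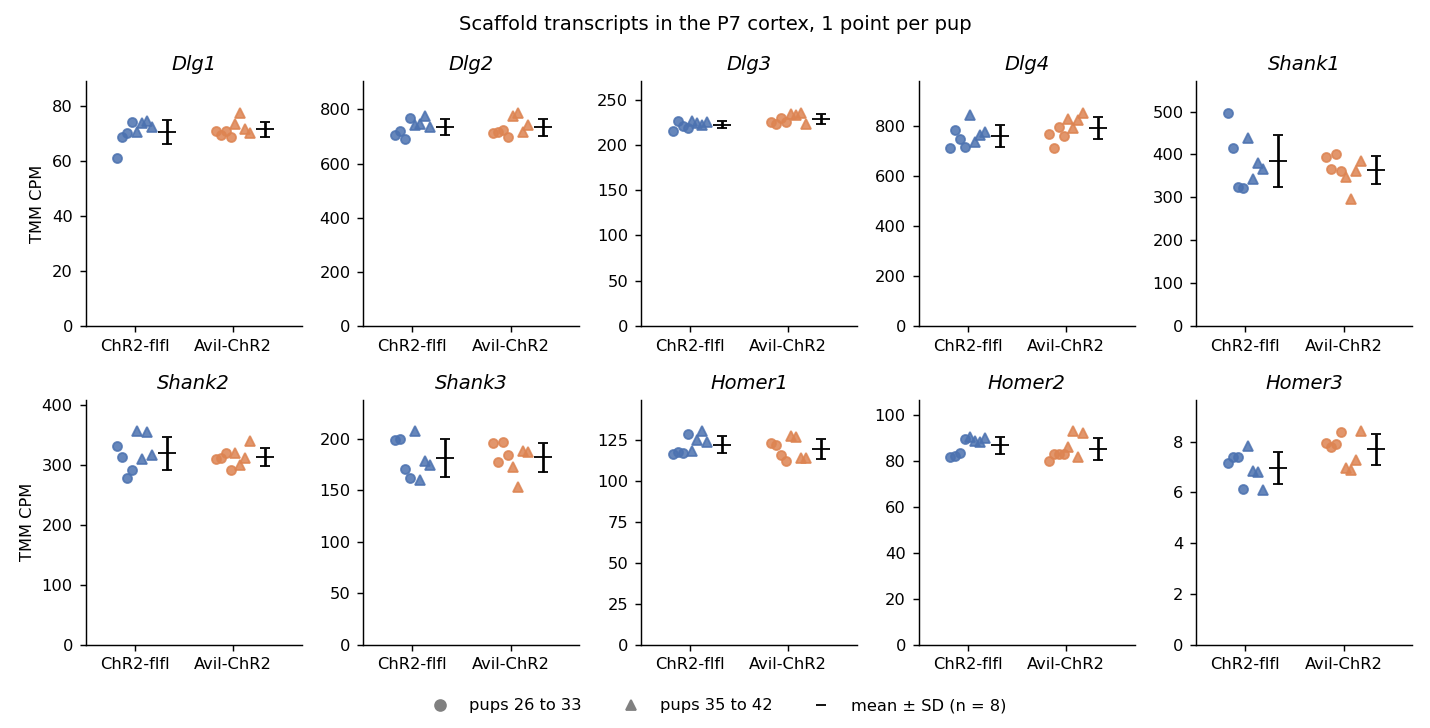
TMM CPM of each scaffold gene in the 8 ChR2-flfl (blue) and 8 Avil-ChR2 pups (orange), 1 point per pup, with circles for pups 26 to 33, triangles for pups 35 to 42 and black bars for the mean ± SD. The genotypes overlap in all 10 panels; Relative to the mean, Shank1 has the widest spread, from 297 to 497 CPM, and Dlg3 the narrowest, from 215 to 235 CPM.

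Shank1 had the largest coefficient of variation of the set in both genotypes, and the mean differences of the 3 Shank genes did not share a sign. Shank1 (chr7:44307848-44358353, plus strand) ranged from 323 over 372 to 497 CPM in ChR2-flfl and from 297 over 364 to 401 CPM in Avil-ChR2 pups. ChR2-flfl replicate 1 had the highest value of all 16 pups, and the coefficient of variation was 15.8% in ChR2-flfl and 8.99% in Avil-ChR2, far above the 0.747% and 0.752% that counting error would give. The log2 difference was -0.07 (SE 0.079, 95% interval -0.24 to 0.09, exact permutation p = 0.444), so that changes of -15.2% and of 6.57% bound the interval. The difference was -0.02 on the log2 scale without ChR2-flfl replicate 1, and -0.14 when each pup's span slope, the slope of its log2 deviations on gene span, was a covariate. The span slope ranged from -0.036 to 0.070 in ChR2-flfl and from -0.040 to 0.030 in Avil-ChR2 pups, and tended to be lower in Avil-ChR2. This covariate is thus not independent of genotype and can also take up part of a genotype difference.

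Shank2 (chr7:143978056-144424494, plus strand) ranged from 279 over 314 to 355 CPM in ChR2-flfl and from 291 over 312 to 339 CPM in Avil-ChR2 pups. Its log2 difference of -0.02 (SE 0.045, 95% interval -0.12 to 0.07) changed sign between the runs, from 0.024 within the first to -0.072 within the second. Shank3 (chr15:89499707-89560261, plus strand), the gene affected in Phelan-McDermid syndrome, ranged from 159.5 over 176.5 to 207 CPM in ChR2-flfl and from 153 over 186 to 197 CPM in Avil-ChR2 pups. The difference on the log2 scale was 0.01 (SE 0.058, 95% interval -0.12 to 0.13), namely 0.048 within the first run and -0.036 within the second. Shank2 overlaps the entry Gm34561 on the opposite strand, which had a mean of 14.0 CPM and a log2 difference of -0.01, about as low in both genotypes.

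Among the Homer genes, Homer1 and Homer2 were slightly lower and Homer3 was higher in the Avil-ChR2 mean. Homer1 (chr13:93304495-93405129, plus strand) ranged from 116 over 121 to 130 CPM in ChR2-flfl and from 112 over 119 to 127 CPM in Avil-ChR2 pups, and 4 Avil-ChR2 pups lay below the lowest ChR2-flfl pup. Its log2 difference was -0.04 (SE 0.034, 95% interval -0.11 to 0.03, exact permutation p = 0.316). Homer2 (chr7:81600481-81706925, minus strand) ranged from 81.8 over 88.3 to 90.2 CPM in ChR2-flfl and from 79.9 over 82.9 to 92.7 CPM in Avil-ChR2 pups, with a log2 difference of -0.03 (SE 0.035, 95% interval -0.10 to 0.04). For both genes, the difference was within the spread between pups.

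Homer3 (chr8:70282891-70294361, plus strand) showed the largest difference of the set. It ranged from 6.08 over 7.00 to 7.84 CPM in ChR2-flfl and from 6.87 over 7.86 to 8.40 CPM in Avil-ChR2 pups. The means were 6.96 ± 0.618 and 7.69 ± 0.597 CPM, the ChR2-flfl mean was exceeded by 7 of 8 Avil-ChR2 pups, and the highest ChR2-flfl pup by 4. The log2 difference was 0.15 (SE 0.063, 95% interval 0.01 to 0.28), a 1.11-fold level, with an unadjusted p of 0.0307 (limma, adjusted p = 0.88) and an exact permutation p of 0.0317. It was 0.194 within the first run and 0.098 within the second. The unadjusted p was no longer under 0.05 without ChR2-flfl replicate 4 or 8 (differences of 0.121 and 0.119) or without Avil-ChR2 replicate 1, 3, 4 or 8 (0.128 to 0.140). With the span slope as a covariate, the difference was 0.066, also without an unadjusted p under 0.05. Homer3 rests on 229 to 408 reads per pup, so that counting error alone gives a coefficient of variation of 5.59% and 5.18% in the genotypes, against observed values of 8.88% and 7.76%.

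Homer3 lies opposite to Ddx49, an RNA helicase gene whose entry overlaps it on the other strand and had a mean of 30.6 CPM, beside 7.32 CPM for Homer3. The library kit retains the strand according to the study's methods, but whether the counting used it is not given in the sources used here. Ddx49 itself had a log2 difference of -0.01 (SE 0.044), beside 0.15 for Homer3.

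**Figure D3:**
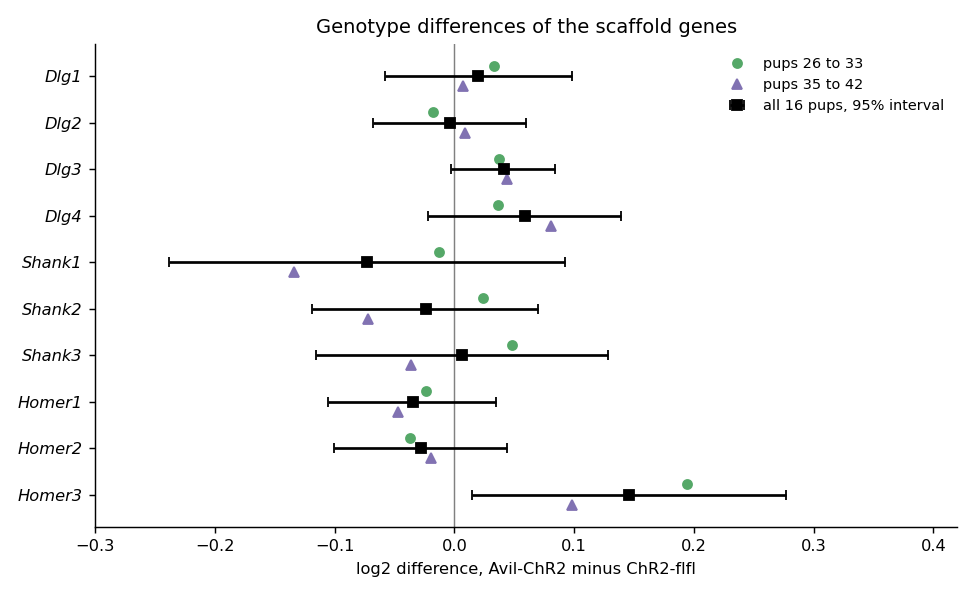
Log2 difference between Avil-ChR2 and ChR2-flfl means of each scaffold gene, with the 95% interval of the limma fit over 16 pups (squares) and the difference within pups 26 to 33 (circles) and 35 to 42 (triangles). The intervals of 9 genes include 0, and that of Homer3 runs from 0.01 to 0.28.

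The precision sets what could have been seen. For the 9 scaffold genes other than Homer3, the widest 95% interval, that of Shank1, reached from -15.2% to 6.57%, and the narrowest, that of Dlg3, from -0.201% to 5.99%. In data simulated for all 21183 genes, the fit recovered 75.5% of the genes that were changed by 0.25 on the log2 scale and 1.5% of those changed by 0.1. The noise was drawn independently for each gene, and many genes of various levels were changed at once. The scaffold genes vary together, and 9 of them have a mean log2 from 6 to 10, where the median SE was 0.033. The rates are therefore a check of the fit and do not give the chance of finding a change of a scaffold gene.

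The genotype difference was also compared between sexes and between the runs of pup numbers. With the sexes of the labels, the genotype by sex interaction had an unadjusted p under 0.05 for Shank1 and Shank2, 2 of 10 scaffold genes against 4.31% of all genes, and an adjusted p under 0.05 for 0 of 21183 genes (limma). For Shank2, the 4 male ChR2-flfl pups had 316 to 355 CPM and the 4 females 279 to 312 CPM, whereas the 3 male Avil-ChR2 pups had 300 to 312 CPM and the 5 females 291 to 339 CPM. The sexes were thus apart in ChR2-flfl and overlapped in Avil-ChR2 pups. The interaction was -0.23 on the log2 scale (SE 0.072, unadjusted p = 0.00529, limma adjusted p = 0.99).

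With Avil-ChR2 replicate 4 counted as male, the Shank2 interaction was -0.28 (SE 0.065, unadjusted p = 0.000476, limma adjusted p = 0.79), and 6.23% of all genes had an unadjusted p under 0.05. The male Avil-ChR2 pups then ranged from 290.5 to 311.5 CPM and the females from 311.8 to 338.8 CPM. Shank1 gave an interaction of -0.34 (SE 0.140, unadjusted p = 0.0244, limma adjusted p = 0.80), from 420 ± 60.3 CPM in male and 351 ± 43.4 CPM in female ChR2-flfl pups to 353 ± 40.6 and 375 ± 23.3 CPM in male and female Avil-ChR2 pups (n = 4 each). For Shank3 it was -0.17 (SE 0.114, unadjusted p = 0.165). All 3 values point the same way, but none passed the adjusted threshold. Shank genes also vary together between pups, as described below, so that the 3 values are not independent.

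The genotype by run interaction had an unadjusted p of 0.25 or higher for all 10 scaffold genes, against 3.04% of all genes below 0.05 and 0% after adjustment (limma). The runs themselves differed. The second run had higher levels than the first, at an unadjusted p under 0.05, of Dlg1, Dlg2, Dlg4, Shank2 and Homer2, 5 of 10 genes, where 12.5% of all genes passed in either direction. Dlg4 was higher by 0.10 (SE 0.032, unadjusted p = 0.00724) and Homer2 by 0.09 (SE 0.029, unadjusted p = 0.00545) on the log2 scale. None of the 10 passed the adjusted threshold, which 26 genes (0.123%) did. What the runs of pup numbers stand for is not given in the labels, and each holds 4 pups of each genotype.

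From pup to pup, many of the scaffold transcripts varied together or in opposition. After the genotype mean was subtracted, 12 of 45 pairs of genes were correlated over the 16 pups at an adjusted p under 0.05 (permutation within genotypes, 45 pairs), 8 of them positively and 4 negatively. By Spearman's rho, 7 pairs passed. Of the 12 pairs, 5 kept an adjusted p under 0.05 with the run of pup numbers removed and 4 with the span slope removed. Shank1 and Shank3 varied together and kept the call in both of these settings, and so did Dlg1 and Shank1, which varied in opposition. Dlg1 and Dlg2 varied with Homer1 and Homer2, but none of the pairs between them kept the call in both. The values of a pup share 1 library and its composition.

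Shank1 and Shank3 had the closest relation, with Pearson's r of 0.90 (permutation p = 2e-05, adjusted p = 0.0009) and Spearman's rho of 0.95 (permutation p = 1e-05, the smallest that 100000 permutations can give). It was 0.89 in ChR2-flfl and 0.96 in Avil-ChR2 pups, 0.89 and 0.97 in the runs, and 0.92 without the 2 pups farthest from the median of Shank1. Shank1 and Shank2 had an r of 0.63 (permutation p = 0.024, adjusted p = 0.077). Homer1 and Homer3, though of the same family, were correlated negatively with an r of -0.70 (permutation p = 0.00466, adjusted p = 0.030). Their rho was -0.65 (permutation p = 0.00898), and r stayed at -0.70 without 2 pups, but was -0.46 (adjusted p = 0.162) with the span slope removed.

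Dlg2 was correlated with Homer1 (r = 0.77, permutation p = 0.00118, adjusted p = 0.0133, rho = 0.69, p = 0.00604) and with Homer2 (r = 0.77, permutation p = 0.00199, adjusted p = 0.0149, rho = 0.73, p = 0.00318), and r was 0.66 and 0.73 without 2 pups. With the run of pup numbers removed, the adjusted p was 0.0042 for Homer1, while Homer2 lost the call (r = 0.59, adjusted p = 0.0692). With the span slope removed, the pair of Dlg2 and Homer1 lost it (r = 0.53, adjusted p = 0.0999). Dlg1 went with Dlg2 (r = 0.73, permutation p = 0.00069, adjusted p = 0.0103, rho = 0.79, p = 0.00039) and with Homer1 (r = 0.69, permutation p = 0.00069, adjusted p = 0.0103, rho = 0.73, p = 0.00152), with an r of 0.77 and 0.73 without 2 pups. With the run removed, the pair of Dlg1 and Dlg2 lost the call (r = 0.60, adjusted p = 0.0942). The pair of Dlg1 and Homer1 lost it with the span slope removed (r = 0.62, adjusted p = 0.0928). Dlg1 went against Shank1 (r = -0.78, permutation p = 0.00195, adjusted p = 0.0149, rho = -0.71, p = 0.00337). This pair kept the call with the run removed (r = -0.80, adjusted p = 0.0045) and with the span slope removed (r = -0.74, adjusted p = 0.0449). The relation of Dlg1 and Shank1 fell to -0.52 without the 2 pups farthest from the median of Dlg1, 1 of them ChR2-flfl replicate 1. Dlg3 and Dlg4 were correlated with an r of 0.63 (permutation p = 0.0121, adjusted p = 0.045, rho = 0.64, p = 0.012, r = 0.85 without 2 pups), but this was 0.91 within the first run of pup numbers and -0.04 within the second, and so did not hold within both.

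The correlations were set beside the GC content of the transcripts and the span of the genes. For each pup, the slope of its log2 deviations on GC content was calculated over 13844 genes, and ranged from -0.108 to 0.0856 per 10 percentage points of GC. The scaffold genes are among these genes. By construction, genes rich in GC tend to be high in a pup with a positive slope. The signs of the r values below are thus partly built in, and their p-values are no separate support. Shank3 followed this slope with an r of 0.89 (permutation p = 6e-05, adjusted p = 0.0008 over 20 relations, rho = 0.90, p = 0.00012), Shank1 with 0.77 (adjusted p = 0.00497, rho = 0.88, p = 0.00022) and Homer3 with 0.77 (adjusted p = 0.00497, rho = 0.75, p = 0.00226), the 3 genes over 60% GC. Homer1, the gene with the lowest GC content, went against it with an r of -0.84 (permutation p = 8e-05, adjusted p = 0.0008, rho = -0.68, p = 0.00401), as did Dlg2 with -0.72 (adjusted p = 0.00834) and Dlg1 with -0.71 (adjusted p = 0.00497). Homer2 had an r of -0.51 (adjusted p = 0.0741), and Dlg3, Dlg4 and Shank2 had r values of -0.06, 0.28 and 0.22. Without the 2 pups farthest from the median slope, r was 0.94 for Shank3, 0.79 for Shank1, 0.78 for Homer3, -0.76 for Homer1, -0.54 for Dlg2 and -0.59 for Dlg1.

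Some of the genes also followed the span slope, in the same family of 20 relations. This slope is likewise calculated over many genes with the scaffold genes among them. A gene of long span therefore tends to follow it by construction. Dlg2 had an r of 0.75 with it (permutation p = 0.00149, adjusted p = 0.00497, rho = 0.67, p = 0.0058), and Homer1 had 0.69 (permutation p = 0.00363, adjusted p = 0.00907, rho = 0.55, p = 0.0266). Homer3 had -0.64 (permutation p = 0.0115, adjusted p = 0.0256, rho = -0.72, p = 0.00378) and Shank3 -0.61 (permutation p = 0.0194, adjusted p = 0.0389, rho = -0.55, p = 0.0474). Without the 2 pups farthest from the median span slope, r was 0.59, 0.53, -0.66 and -0.57 in this order. For the other 6 genes the adjusted p was 0.0741 or higher.

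When the GC slope of each pup was removed as well, an alternative chosen after the data were seen, 9 pairs had an adjusted p under 0.05, of which 3 were among the 12 above, and none of the 9 was negative. By Spearman's rho, 1 pair passed. Shank1 and Shank3 stayed correlated with an r of 0.76 (adjusted p = 0.047), and Shank2 joined them with 0.74 for Shank1 (adjusted p = 0.047) and 0.71 for Shank3 (adjusted p = 0.0516). Homer1 and Homer3 were at -0.17, Shank3 and Homer3 at -0.05, and Dlg1 and Shank3 at -0.09. Dlg1 and Homer1 were at 0.24, Dlg2 and Homer1 at 0.45 and Dlg1 and Shank1 at -0.51, all without the call. Dlg4 was then correlated with Dlg1 (0.65), Dlg2 (0.70), Dlg3 (0.67) and Homer2 (0.65), each with an adjusted p of 0.047. What sets the slopes was not tested.

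**Figure D4:**
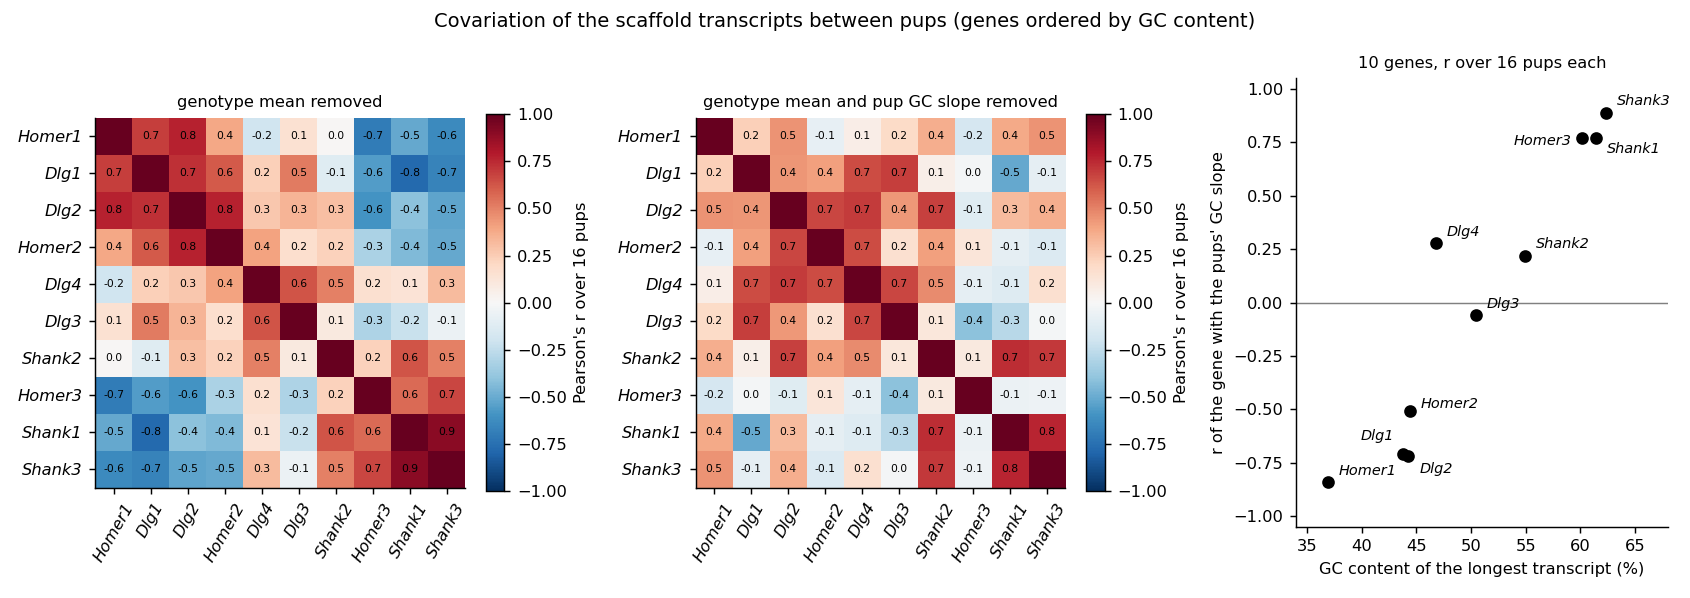
Pearson's r between scaffold genes over 16 pups after removal of the genotype mean (left) and of the genotype mean and the pups' GC slope (middle), with genes ordered by GC content, and r of each gene with the GC slope against the GC content of its longest transcript (right). Genes of like GC content are red with each other and blue with the other end on the left, for example 0.90 for Shank1 and Shank3 and -0.70 for Homer1 and Homer3; most of the blue is gone in the middle.

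The genes most like each scaffold, 3 for each, were found by Pearson's r over the 16 pups, with the genotype mean removed. For Shank3 these were Dlgap4 (r = 0.955), which encodes a SAPAP adaptor that binds Shank, Speg (0.951) and Lrfn3 (0.949), with GC contents of 59.4%, 62.6% and 60.7%. For Shank1, Prrc2a (0.951) was among them, and for Shank2 they were Mapkbp1 (0.912), Myo16 (0.907) and A230050P20Rik (0.893). For Dlg1 they were Armc1 (0.935), Mpv17l (0.925) and Nap1l3 (0.917), for Dlg2 Opcml (0.936), Wwp1 (0.915) and Strn (0.907), for Dlg3 Snx19 (0.896), Habp4 (0.878) and Kcnip2 (0.872), and for Dlg4 Cxcl14 (0.877) and Arhgef4 (0.875) were among them. Both had a GC content of 55.5% over the longest transcript, above the 46.8% of Dlg4 in the same measure. For Homer1 they were Ergic2 (0.936), Spag9 (0.933) and Zfml (0.927), for Homer2 Il1rap (0.903), Eps8 (0.895) and Dio2 (0.877), and for Homer3 Map3k11 (0.925), Slc39a13 (0.869) and Plekhg5 (0.864). In the ranking of 15137 genes, Shank3 held place 40 for Shank1, and Homer1 place 144 for Dlg2.

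The binding partners of the scaffolds were described by lists. Among all 21183 genes, 413 were higher and 732 lower at an unadjusted p under 0.05, which together are the 5.41% given above. Of 12 Homer binding proteins, 12 had a lower mean in Avil-ChR2, 3 at an unadjusted p under 0.05 and 0 at an adjusted p, with a median log2 difference of -0.04, whereas 48.6% of all genes were lower with a median of 0.0020. The 3 genes were the ryanodine receptors Ryr2 and Ryr3, which release calcium from the endoplasmic reticulum, and Dnm3, a postsynaptic dynamin. Ryr2 had 197 ± 26.5 and 173 ± 11.2 CPM (log2 difference -0.18, SE 0.066, unadjusted p = 0.0115, limma adjusted p = 0.82), Ryr3 had 55.3 ± 9.31 and 47.5 ± 3.43 CPM (-0.20, SE 0.076, unadjusted p = 0.0136), and Dnm3 200.2 ± 14.1 and 187 ± 5.92 CPM (-0.10, SE 0.037, unadjusted p = 0.0191). In each, 8 of 8 Avil-ChR2 pups lay below the ChR2-flfl mean. The 3 genes were picked by their unadjusted p in these same pups, so that this count is not separate support. These are long genes, with spans of 553847, 398952 and 495874 bp. With the span slope as a covariate, 6 Homer binding genes were higher and 6 lower with a median of 0.001 and 1 lower at an unadjusted p under 0.05, and with the GC slope 2 were higher and 10 lower with a median of -0.03. Without ChR2-flfl replicate 7, 3 were higher and 9 lower. The settings of the lists with slopes or a pup left out were chosen after the data were seen. As the span slope tended to be lower in Avil-ChR2 pups, its use as a covariate can also remove part of a genotype difference.

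Of 17 SAPAP adaptors and enzymes of the postsynaptic density, 8 were higher and 9 lower (median -0.01), and 2 lower ones had an unadjusted p under 0.05. These were Lrrc7, which encodes densin and binds CaMKII (106 ± 14.2 and 91.6 ± 5.15 CPM, log2 difference -0.20, SE 0.062, unadjusted p = 0.00449, limma adjusted p = 0.81), and Kalrn, a guanine nucleotide exchange factor of spines (317 ± 19.4 and 299 ± 11.02 CPM, -0.08, SE 0.035, unadjusted p = 0.0339). Both were below the ChR2-flfl mean in 8 of 8 Avil-ChR2 pups, a count that likewise follows from their choice by p in these pups. Both are long, with spans of 479334 and 604219 bp. With the span slope as a covariate, 5 genes of the list were higher and 12 lower (median -0.04), 1 of them at an unadjusted p under 0.05. Of 16 other scaffolds of the MAGUK and PDZ kind, 7 were higher and 9 lower (median -0.01), and Lin7b had 33.5 ± 3.28 and 36.2 ± 2.64 CPM (0.12, SE 0.055, unadjusted p = 0.0463, limma adjusted p = 0.91).

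Of 17 tested membrane proteins that bind Dlg, 12 were higher and 5 lower (median 0.02), none at an unadjusted p under 0.05, and the largest difference was that of the potassium channel gene Kcnj4 (0.12, SE 0.081, unadjusted p = 0.147, limma). The counts were 8 higher and 9 lower with the span slope as a covariate (median -0.02) and 9 higher and 8 lower with the GC slope (median 0.001), so that the larger number of higher genes depended on the setting. Of 11 tested Shank binding proteins, 7 were higher and 4 lower (median 0.01), none at an unadjusted p under 0.05 (limma). With the span slope, 4 were higher and 7 lower, 2 of these at an unadjusted p under 0.05, and with the GC slope 5 were higher and 6 lower. Of 10 activity-dependent genes, 7 were higher and 3 lower (median 0.07), and Fos had 2.33 ± 0.162 and 2.85 ± 0.503 CPM (0.27, SE 0.102, unadjusted p = 0.0165, limma adjusted p = 0.84), with 6 of 8 Avil-ChR2 pups above the mean of the controls. With the span slope, 6 were higher and 4 lower (median 0.02), Fos was no longer under an unadjusted p of 0.05 and 1 lower gene was, and with the GC slope the median was also 0.02. No gene of these 6 lists passed the adjusted threshold in any of these settings.

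**Figure D5:**
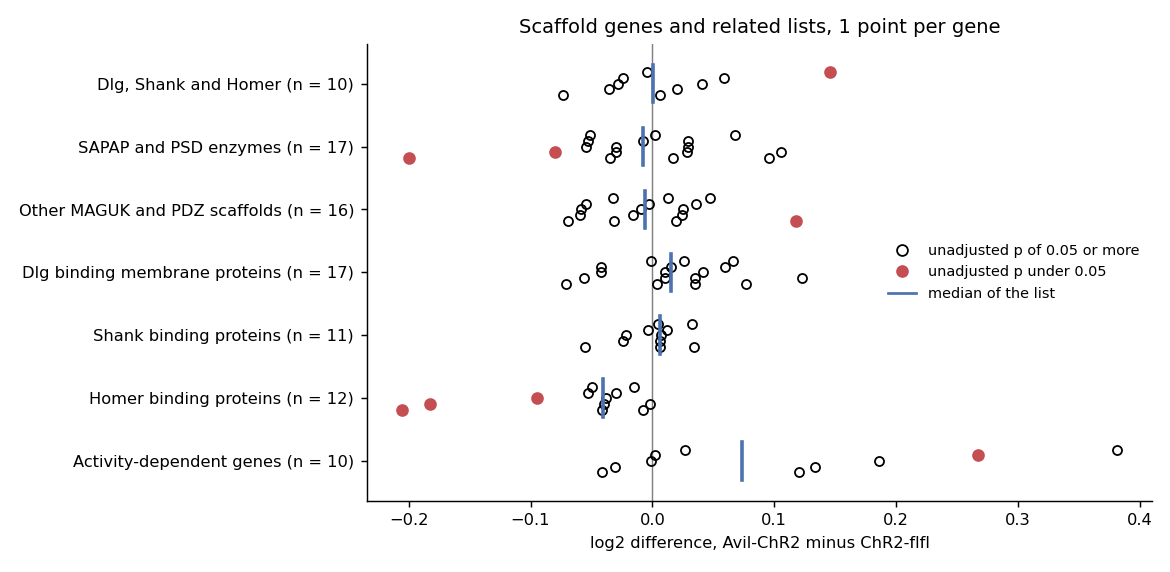
Log2 difference between Avil-ChR2 and ChR2-flfl means for the 10 scaffold genes and the tested genes of 6 related lists, 1 point per gene, red where the unadjusted limma p was under 0.05, with blue bars for the median. The 12 Homer binding genes all lie below 0 (median -0.04), and the scaffold genes lie on both sides of it.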

How the data were processed

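Cortical RNA of 16 pups (8 per genotype) was sequenced with 75 cycles. Alignment to mm10 (GRCm38) was done by the authors in SeqMan NGen 17 with reads from 50 bp upward, followed by gene counts in ArrayStar 17 and the TMM method of edgeR. The deposited values are therefore linear TMM-scaled CPM (another unit than raw counts), empty where a gene had no reads. Reads per gene were worked out from the value of 1 read, and 100% of values up to 20000 reads were whole to within 0.05. Depth sets counting error only.

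Values were log2 transformed, values missing or below -5 were set to -5 (4432 of 338928), and genes with at least 12 of 16 pups above -5 were kept. Genotypes were compared with limma 3.58.1 (R 4.3.3, trend, no covariate), with Benjamini-Hochberg adjustment over 21183 genes, and single values with exact two-sided permutation tests over 12870 splits (Python 3.11.15, scipy 1.17.1). Correlations used 100000 permutations within genotypes. The fit was tested on simulated data. Exon lengths and sequences were from GENCODE M21. The longest transcript, also used for GC content, was taken over all transcripts of a gene, coding or not.

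The members and lists were chosen with earlier results of these data known. All members are named. Of the related lists, each gene with an unadjusted p under 0.05 is named, or else the gene with the largest difference, and for likeness the 3 genes with the highest r among those with a mean log2 CPM of at least 0. Some genes under this rule are not reported here. Alternatives concerned filters, scaling, covariates, the replicate block, runs and each pup left out. Columns of values outside these 16 pups were not present.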

Additional observations from a re-analysis of the deposited data

Results flagged for a closer look

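The value of Dlg1 in ChR2-flfl replicate 1, 60.9 CPM, stood apart from the other 7 ChR2-flfl pups. The gap to the next pup made up 0.606 of the range of the group on the log2 scale, above the critical value of 0.526 for 8 pups. In all, 20 groups of 8 values were examined, of which about 1 in 20 is expected to be marked by chance. The same pup had the highest Shank1 value of all 16 pups, and without it the log2 difference of Dlg1 was -0.01.

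The genotype difference of Shank2 went in opposite directions in the sexes when Avil-ChR2 replicate 4 was counted as male. Each female Avil-ChR2 pup lay above the mean of the female ChR2-flfl pups and each male Avil-ChR2 pup below the mean of the male ChR2-flfl pups. This pattern was looked for in every scaffold gene, with either sex of replicate 4 and also between the runs of pup numbers. The share of all genes with such a pattern was not counted. The interaction was -0.279 on the log2 scale (limma, unadjusted p = 0.000476, adjusted p = 0.79). It was -0.229 with the sexes of the labels, -0.259 without that pup, and -0.253 with the run of pup numbers as a covariate (unadjusted p = 0.00105). The last 2 settings were chosen after the data were seen. In ChR2-flfl pups, sex and run are uneven, with 3 females among pups 26 to 33 and 3 males among pups 35 to 42, and the part of litter was not tested.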

How the results depend on the processing

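No scaffold gene passed the adjusted threshold under any of 29 alternatives, and the lowest adjusted p was 0.608. Differences of Dlg3, Dlg4, Shank1 and Homer3 kept their sign in all of them, but with the span slope Homer3 was 0.066 and Shank1 -0.137. Dlg2 turned to 0.010 with quantile normalization, 0.041 with the span slope, 0.009 in pups 35 to 42 and 0.012 with the GC slope. Shank3 turned to -0.077 with the span slope, -0.036 in pups 35 to 42 and -0.040 with the GC slope, Shank2 to 0.024 in pups 26 to 33, and Homer1 to 0.013 and Homer2 to 0.008 with the span slope. The log2 ratio of Dlg4 to Dlg3 was -0.001 in pups 26 to 33. The Homer1 interaction with sex was -0.007 with replicate 4 as male. The cause was not tested.

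Leaving out 1 pup in turn gave log2 differences of -0.010 to 0.032 for Dlg1, -0.019 to 0.007 for Dlg2, -0.020 to 0.041 for Shank3, and -0.002 to 0.036 for the Dlg4 to Dlg3 ratio. The number of scaffold genes at an unadjusted p under 0.05 then ranged from 0 to 3 and that of all genes at an adjusted p from 1 to 2. The 3 (Dlg3, Dlg4 and Homer3) came without ChR2-flfl replicate 5, 2 (Dlg4 and Homer3) without Avil-ChR2 replicate 2, and 0 without ChR2-flfl replicate 4 or 8 or Avil-ChR2 replicate 1, 3, 4 or 8. Otherwise 2 scaffold genes were counted without a filter, 3 with quantile normalization, 3 with the GC slope (Dlg3, Shank1 at -0.13 and Homer3), and 0 with the span slope, the replicate block or pups 35 to 42. Genes at an adjusted p numbered 1 with the span slope, the replicate block and in either run.

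With the replicate block, the scaffold count was 0 and the log2 ratio differences kept their sign. Replicate numbers are serial, and same-numbered pups' deviations correlated between -0.344 and 0.389, and 1 of 8 correlated best with its own number, so that the pups share only a number.

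Correlated pairs numbered 7 with the span slope removed, 4 of them among the 12, and 7 with the run removed, 5 of them among the 12. With the GC slope removed, Shank3 and Homer1 turned to 0.45 and Shank3 and Homer3 to -0.05. The GC slope and a voom fit on recovered reads were added after the data were seen. Planned edgeR and DESeq2 fits on recovered reads were not run, as the deposited unit is not raw counts. Depth limits Homer3 most, with 229 to 408 reads.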
